A study of Mus musculus with 6 samples.

Results

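The aminoacyl-tRNA synthetase genes were examined in murine *Hoxa9* leukemias with and without co-expressed *IRX3*. Members were all genes with the mouse symbol of a synthetase, which gave 38 of the 41128 genes in the table. Of these, 20 encode the enzymes of the cytosol and 17, whose symbols end in 2, those of mitochondria. The remaining member, *Tarsl2*, also ends in 2 but encodes a homolog of the cytosolic threonine enzyme, and was kept apart.

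RNA was sequenced from KIT+Gr1+ leukemia cells of 6 C57BL/6 mice with acute myeloid leukemia, 1 library per mouse. The C57BL/6 mice were the recipients. KIT+ BM cells of female CD45.1+ donors (strain B6.SJL-*Ptprc*a*Pepc*b/BoyJ) had been transduced with retroviruses and drug selected. They were transplanted, with normal CD45.2+ BM, into irradiated female CD45.2+ recipients. Every mouse carried FLAG-tagged *Hoxa9* from a pMSCV retrovirus. The 3 *Hoxa9*/MTV mice (1.1, 1.2 and 1.4) also carried the empty vector MTV, and the 3 *Hoxa9*/*IRX3* mice (3.2, 3.3 and 3.5) a MYC-tagged human *IRX3* cDNA, driven by the viral promoter and not by the gene's own. Cells were thawed BM of sick mice, sorted as viable CD45.1+ cells. The paper reports a later onset of leukemia in *Hoxa9*/*IRX3* recipients, so cohort and time to illness cannot be told apart. Values by mouse are given below in the order 1.1, 1.2, 1.4, then 3.2, 3.3, 3.5. Each mouse carried its own leukemia, and p-values measure the spread among 3 mice of a cohort.

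Aminoacyl-tRNA synthetases join each amino acid to its tRNA, and so set which amino acid the ribosome inserts for a codon. Most amino acids have 1 gene for the cytosol and another, also in the nucleus, for mitochondria, while *Kars* and *Gars* serve both compartments from 1 gene. Several cytosolic enzymes are held in a multisynthetase complex with 3 scaffold proteins, and the others are free. When uncharged tRNA accumulates, the kinase GCN2 phosphorylates eIF2, and the transcription factor ATF4 is then translated and raises genes for amino acid synthesis and transport and for many cytosolic synthetases.

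The totals by which the RPKM were scaled, as recovered from the RPKM, were 7979246 to 9803621 reads per library. They are not the numbers of reads sequenced, which were larger. Defining markers of the sort were present (*Kit* 1.63 to 3.12 RPKM and *Ly6c2*, which encodes an antigen bound by Gr1 antibodies, 413 to 844 RPKM). Erythroid markers summed to at most 0.303 RPKM in any mouse. Of 7 B cell markers 1 was listed at 0 in all mice (*Pax5*), and of 7 T and NK cell markers 2 (*Cd3d* and *Ncr1*). Not all lymphoid markers were absent. B cell markers summed to 0.853 to 7.36 RPKM, and T and NK cell markers to 14.9 to 482 RPKM, mostly from *Nkg7*. Mouse *Irx3* reached 15.1, 0.421 and 0.148 RPKM in mice 3.2, 3.3 and 3.5 and was listed at 0 in the rest. The introduced cDNA is human, so these values do not measure its level. The 100 most abundant genes took 16.1%, 17.2% and 16.2% of gene reads in the *Hoxa9*/MTV mice and 18.9%, 19.7% and 21.2% in the *Hoxa9*/*IRX3* mice, with mouse 3.5 the highest and no overlap between the cohorts.

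Every synthetase gene was detected in every mouse. RPKM in this table divide the reads by the whole span of a gene including introns, so levels of different genes are compared here only after division by the length of the exons instead, averaged over the 6 mice. On this RPKM scale of exons cytosolic members had a median level of 12.6 and mitochondrial members of 5.31. *Nars*, which charges tRNA with asparagine, had the highest mean level (47.2), followed by *Vars* for valine (39.3) and *Dars* for aspartate (24.6). The lowest were *Nars2*, the mitochondrial asparagine gene (2.06), *Cars* for cysteine (2.11) and *Ears2*, the mitochondrial glutamate gene (2.95). Asparagine thus had the highest and, by a small margin, the lowest gene of the family on this scale. The exon length joins the exons of all annotated transcripts of a gene, so close ranks such as those of *Nars2* and *Cars* are uncertain. Mitochondrial levels spanned a narrow range, from 2.06 to 7.07, and cytosolic ones 2.11 to 47.2.

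The cohorts differed in few synthetase genes. A gene was tested if it exceeded 0.5 RPKM in at least 1 mouse, which 32 of the 38 members did (18 cytosolic, 13 mitochondrial and *Tarsl2*). Of these, 1 passed an adjusted p under 0.05 (3.13%, beside 5.36% of all 9522 genes tested): *Nars* rose in *Hoxa9*/*IRX3* versus *Hoxa9*/MTV cells. None passed that limit together with a 2-fold change on the scale of the test, log2(RPKM + 0.5), which 3.13% of all genes did. At an unadjusted p under 0.05 there were 6 members, 18.8% beside 24.3% of all genes. The 3 mice of the *Hoxa9*/*IRX3* cohort lay above all *Hoxa9*/MTV mice in 5 tested members (15.6%, beside 12.2% of all genes) and below them in 6 (18.8%, beside 21.6%). Fitted on reads, 1 of all 38 members was called, again *Nars* (2.63%, beside 4.08% of 11391 genes), and the unpaired test with a ratio of means over 2 also picked *Nars* (3.13%, beside 6.97%). Median log2 fold changes were -0.004 for the 32 members and -0.06 for all genes.

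**Figure D1:**
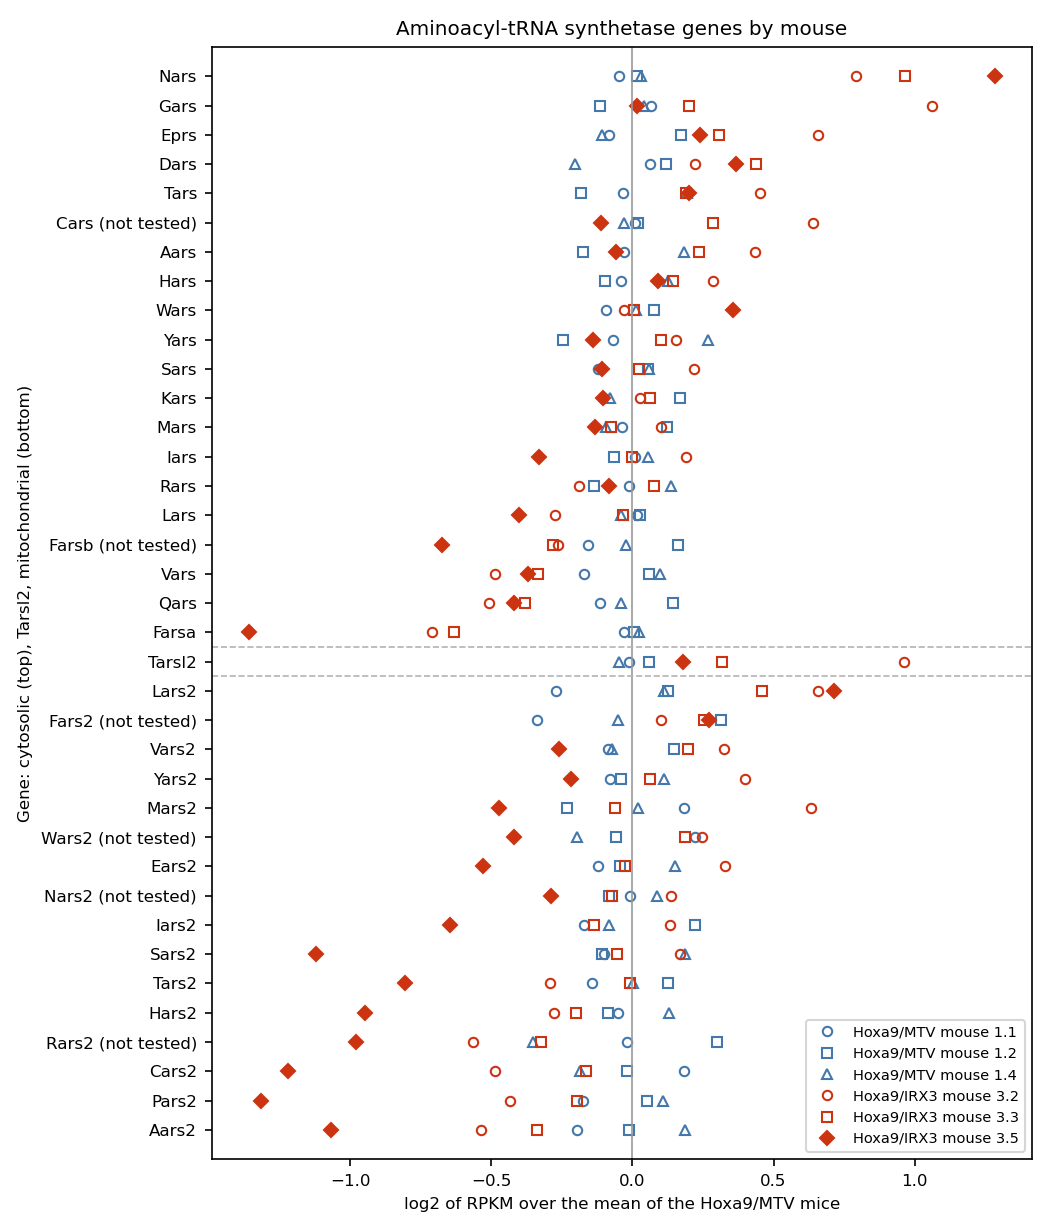
Level of 37 of the 38 synthetase genes in each mouse, as the log2 ratio of its RPKM to the mean of the 3 *Hoxa9*/MTV mice (horizontal axis), with blue symbols for *Hoxa9*/MTV and red for *Hoxa9*/*IRX3* mice, cytosolic genes at the top and mitochondrial genes at the bottom. *Nars* (7.69 to 8.12 against 13.8 to 19.3 RPKM) and *Farsa* (9.68 to 10.03 against 3.85 to 6.38 RPKM) have the largest differences, and the filled diamonds of mouse 3.5 lie furthest left in most of the mitochondrial genes.

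The 95% interval of the fold change lay within 2-fold either way for 29 of the 32 tested members. The exceptions were *Nars*, *Farsa* and *Pars2*. Intervals reached 0.26 to 0.62 to either side of the log2 estimate, with a median of 0.36. These intervals are not adjusted for the number of genes, and the call is stricter: *Farsa* at -0.84 and *Qars* at -0.40 had intervals that left out 0 and were not called. Because 0.5 is added to every value, they are too narrow for low genes. *Sars2* had -0.19 (SE 0.22) here and -0.30 (SE 0.35) from reads, and *Tarsl2* 0.24 (SE 0.15) and 0.49 (SE 0.25).

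**Figure D2:**
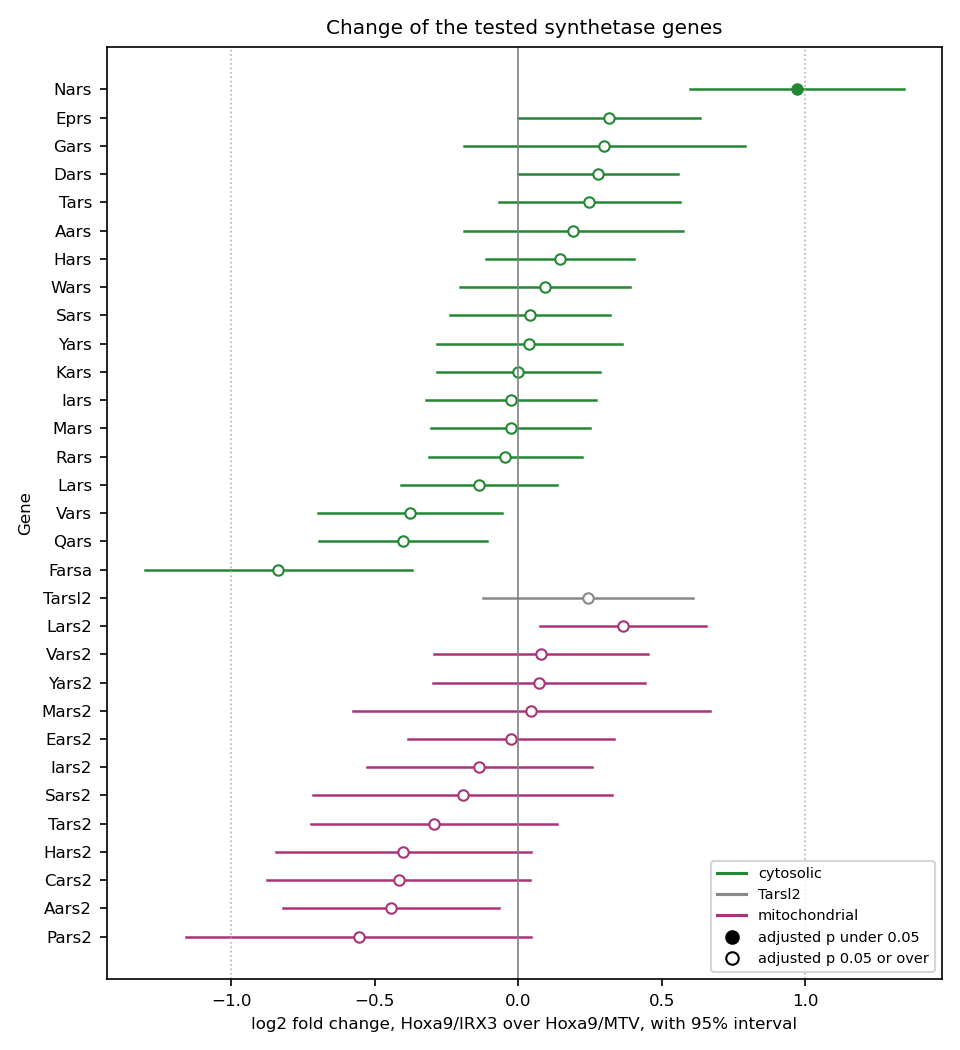
Log2 fold change of 31 of the 32 tested synthetase genes in *Hoxa9*/*IRX3* over *Hoxa9*/MTV mice (points) with 95% intervals from limma (lines), in green for cytosolic genes, grey for *Tarsl2* and purple for mitochondrial genes, and dotted lines at a 2-fold change. The only filled point, an adjusted p under 0.05, is *Nars* at 0.97, and *Farsa* has the most negative value at -0.84.

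*Nars* encodes the cytosolic asparaginyl-tRNA synthetase (chromosome 18, 64499647 to 64516652, minus strand, GRCm38). It had 7.69, 8.03 and 8.12 RPKM in the *Hoxa9*/MTV mice and 13.8, 15.5 and 19.3 RPKM in the *Hoxa9*/*IRX3* mice. Cohorts did not overlap, and mouse 3.5 was the highest. The ratio of means was 2.04 (1.84 without mouse 3.5), with a log2 change of 0.97 ± 0.16 (SE, adjusted p = 0.0239) and a 95% interval of 0.60 to 1.34. These values rest on about 1157, 1135 and 1335 reads in the *Hoxa9*/MTV mice and 2075, 2588 and 2624 reads in the *Hoxa9*/*IRX3* mice. The reads of *Nars* were not recovered as whole numbers and are approximate. In bulk RNA, more cells of a kind and more RNA per cell cannot be told apart. Without any 1 of the *Hoxa9*/MTV mice the adjusted p was 0.109 to 0.113, with log2 fold changes of 0.95 to 0.99, and calls among all genes then fell from 510 to between 61 and 74. Its mitochondrial counterpart *Nars2* did not pass the level filter and had 0.129, 0.122 and 0.138 RPKM in the *Hoxa9*/MTV mice and 0.142, 0.123 and 0.106 RPKM in the *Hoxa9*/*IRX3* mice, with overlapping cohorts. From the reads behind these values, the log2 fold change of *Nars2* was -0.07 (SE 0.21, adjusted p = 0.869).

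The gene for the enzyme that makes asparagine also rose. *Asns* encodes asparagine synthetase, which forms asparagine from aspartate and glutamine (chromosome 6, 7675169 to 7693254, minus strand). It had 0.4, 0.326 and 0.349 RPKM in the *Hoxa9*/MTV mice and 2.58, 3.67 and 2.67 RPKM in the *Hoxa9*/*IRX3* mice, with a wide gap between the cohorts. The ratio of means was 8.3, with a log2 change of 2.00 ± 0.15 (SE, adjusted p = 0.00298), a smaller fold because of the 0.5 added to every value. It rests on 64, 49 and 61 reads in the *Hoxa9*/MTV mice and 414, 651 and 385 reads in the *Hoxa9*/*IRX3* mice. Its call held without any 1 mouse, at an adjusted p of at most 0.0318. Per kilobase of exons, *Asns* had 2.16 to 2.65 in the *Hoxa9*/MTV mice and 17.1 to 24.3 in the *Hoxa9*/*IRX3* mice.

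**Figure D3:**
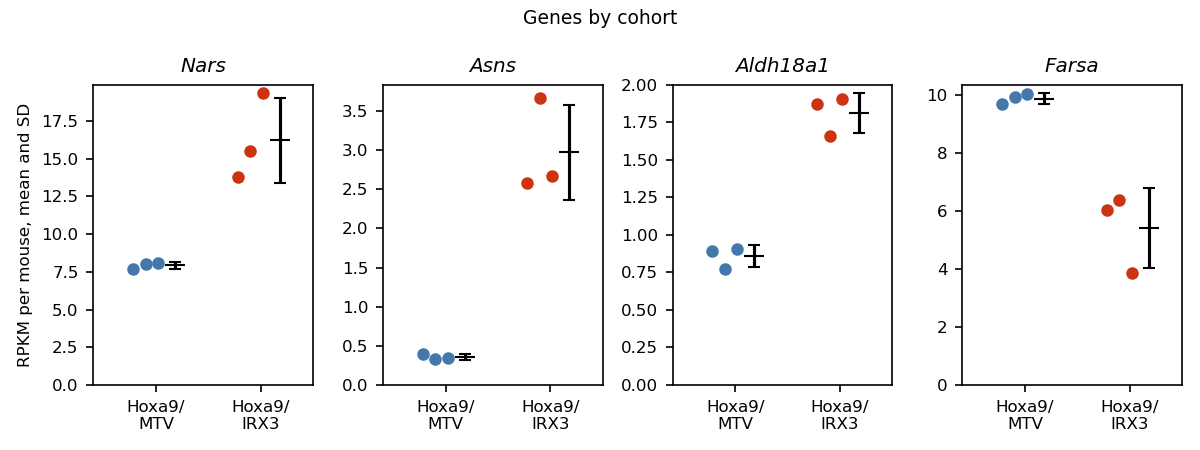
RPKM of *Nars*, *Asns*, *Aldh18a1* and *Farsa* in each mouse (points), with the mean and SD of each cohort of 3 mice beside them (black bars). All axes start at 0. The first 3 are higher in every *Hoxa9*/*IRX3* mouse (*Asns* 2.58 to 3.67 against 0.326 to 0.400 RPKM), and *Farsa* is lower in every one.

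The most negative change among cytosolic members was that of a phenylalanine gene. *Farsa* and *Farsb* encode the alpha and beta subunits of the cytosolic phenylalanyl-tRNA synthetase, which works as a tetramer of both. *Farsa* had 9.68, 9.92 and 10.03 RPKM in the *Hoxa9*/MTV mice and 6.04, 6.38 and 3.85 RPKM in the *Hoxa9*/*IRX3* mice. The cohorts did not overlap and mouse 3.5 was the lowest, but a log2 change of -0.84 ± 0.19 (SE, adjusted p = 0.0614) missed the limit. The adjusted p was 0.0388 without mouse 3.5, with a log2 fold change of -0.63, and 0.0442 when libraries were weighted by their quality. *Farsb*, below the level filter, had 0.271, 0.338 and 0.297 RPKM in the *Hoxa9*/MTV mice and 0.251, 0.249 and 0.189 RPKM in the *Hoxa9*/*IRX3* mice, again without overlap. Its log2 fold change from reads was -0.38 (SE 0.21, adjusted p = 0.3). *Fars2*, for mitochondria, had 0.032, 0.0504 and 0.0391 RPKM in the *Hoxa9*/MTV mice and 0.0435, 0.0483 and 0.0489 RPKM in the *Hoxa9*/*IRX3* mice, with overlapping cohorts and a log2 fold change from reads of 0.24 (SE 0.21, adjusted p = 0.507). A microRNA gene, *Mir7069*, lies within *Farsa* on the same strand over 62 bases, and reads there cannot be told apart.

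Among members of the multisynthetase complex, limma called 0 of 8 (1 at an unadjusted p under 0.05, and 0 from reads), with a median log2 fold change of -0.03. *Qars* charges glutamine and has no mitochondrial counterpart, since mitochondria make glutaminyl-tRNA from glutamyl-tRNA. It had 7.29, 8.74 and 7.69 RPKM in the *Hoxa9*/MTV mice and 5.56, 6.08 and 5.91 RPKM in the *Hoxa9*/*IRX3* mice, all *Hoxa9*/*IRX3* values lying lower, with a log2 change of -0.40 ± 0.12 (SE, adjusted p = 0.11). In the other direction, *Eprs*, the fused enzyme for glutamate and proline, had 1.42, 1.69 and 1.39 RPKM against 2.37, 1.86 and 1.77 RPKM in *Hoxa9*/MTV against *Hoxa9*/*IRX3* mice, with a log2 change of 0.32 ± 0.13 (SE, adjusted p = 0.207). *Dars* had 1.84, 1.92 and 1.53 RPKM against 2.05, 2.39 and 2.27 RPKM, with a log2 change of 0.28 ± 0.12 (SE, adjusted p = 0.206). The cohorts overlapped in neither gene, but the gaps were small beside the spread between mice. *Kars*, the lysine enzyme of both compartments, overlapped throughout at 3.24, 3.92 and 3.3 RPKM against 3.55, 3.64 and 3.24 RPKM. *Lars* for leucine had 0.812, 0.818 and 0.78 RPKM against 0.665, 0.785 and 0.608 RPKM and *Rars* for arginine 1.6, 1.47 and 1.77 RPKM against 1.41, 1.7 and 1.52 RPKM, both overlapping. *Iars* and *Mars*, for isoleucine and methionine, differed by -0.03 each on the log2 scale. A processed pseudogene, *Gm4849*, matches *Iars* transcripts at 96.0% identity over 1656 bases. It was listed at 34.0 to 49.9 RPKM. Reads may be shared between the 2, so the level and change of *Iars* are uncertain. *Mars* overlaps *Ddit3*, a stress-response gene on the other strand, over 68 bases.

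Of the 10 free cytosolic members tested, 8 had log2 fold changes above 0 and 2 below, with a median of 0.12. Among all 9522 genes tested, 4047 lay above 0 and 5475 below. Only *Nars* of the 10 passed. *Vars* for valine had 14.5, 17.04 and 17.5 RPKM in the *Hoxa9*/MTV mice and 11.7, 12.98 and 12.7 RPKM in the *Hoxa9*/*IRX3* mice. No mouse overlapped, and a log2 change of -0.38 ± 0.13 (SE, adjusted p = 0.151) did not pass. *Gars*, the glycine enzyme of both compartments, had 0.896, 0.792 and 0.882 RPKM in the *Hoxa9*/MTV mice and 1.79, 0.986 and 0.867 RPKM in the *Hoxa9*/*IRX3* mice. Mouse 3.2 was far above the other 5, the cohorts overlapped, and a log2 change of 0.30 ± 0.20 (SE, adjusted p = 0.404) did not pass. *Tars* for threonine had 2.6, 2.35 and 3.04 RPKM against 3.65, 3.04 and 3.06 RPKM, touching at 3.04 RPKM, with a log2 change of 0.25 ± 0.13 (SE, adjusted p = 0.297). *Aars*, *Hars*, *Wars*, *Sars* and *Yars*, for alanine, histidine, tryptophan, serine and tyrosine, had log2 fold changes between 0.04 and 0.19 with overlapping cohorts. *Cars*, below the level filter, had 0.293, 0.295 and 0.285 RPKM in the *Hoxa9*/MTV mice and 0.453, 0.355 and 0.269 RPKM in the *Hoxa9*/*IRX3* mice, with a log2 fold change from reads of 0.28 (SE 0.25, adjusted p = 0.528). *Aars* shares 1326 bases with *Exosc6* on the same strand, and *Hars* and *Hars2* overlap on opposite strands over 198 bases. Whether the counting used the strand is not given in the sources used here, so reads in overlaps may be shared.

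*Tarsl2* had 0.381, 0.401 and 0.372 RPKM in the *Hoxa9*/MTV mice and 0.748, 0.48 and 0.436 RPKM in the *Hoxa9*/*IRX3* mice. The cohorts did not overlap, mouse 3.2 being the highest, and a log2 change of 0.24 ± 0.15 (SE, adjusted p = 0.371) did not pass. It shares 923 bases with *Tm2d3* on the same strand. The cytosolic *Tars* and mitochondrial *Tars2* differed in the sign of their log2 fold changes (0.25 and -0.29), neither of which passed.

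Mitochondrial members had a median change below 0 that turned above 0 without 1 mouse. Of 13 tested, limma called 0 (2 at an unadjusted p under 0.05, *Aars2* and *Lars2*, and 0 from reads). Log2 fold changes were above 0 in 4 and below in 9, beside 4047 above and 5475 below among all 9522 genes tested. The mitochondrial median was -0.14, beside -0.06 for all genes. Without mouse 3.5 the mitochondrial median was 0.044. Mouse 3.5 was the lowest of the 6 in 15 of the 17 mitochondrial genes (88.2%), against 6 of 20 cytosolic genes and 33.3% of all tested genes. After median-of-ratios scaling, in which its factor was 0.914 and the others lay at 1.01 to 1.06, it was lowest in 12 of 17 (70.6%) and 22.7% of all tested genes. The remaining mitochondrial genes on either scale were lowest in mouse 1.1. The 2 in which mouse 3.5 was not lowest as deposited were *Lars2* and *Fars2*.

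The most negative values among mitochondrial members show this mouse apart. *Pars2*, for proline, had 4.13, 4.83 and 5.03 RPKM in the *Hoxa9*/MTV mice and 3.45, 4.07 and 1.87 RPKM in the *Hoxa9*/*IRX3* mice. All *Hoxa9*/*IRX3* mice were lower, mouse 3.5 by far, and a log2 change of -0.56 ± 0.25 (SE, adjusted p = 0.231) did not pass. *Aars2*, for alanine, had 1.32, 1.5 and 1.73 RPKM in the *Hoxa9*/MTV mice and 1.05, 1.2 and 0.725 RPKM in the *Hoxa9*/*IRX3* mice. Here all *Hoxa9*/*IRX3* mice were lower, with a log2 change of -0.45 ± 0.16 (SE, adjusted p = 0.15). Leaving out mouse 3.5 gave -0.31. *Cars2* had 1.66, 1.44 and 1.29 RPKM against 1.04, 1.3 and 0.627 RPKM, overlapping only through the 1.29 and 1.30 of mice 1.4 and 3.3, with a log2 change of -0.42 ± 0.19 (SE, adjusted p = 0.236). It overlaps *Naxd* on the other strand over 984 bases. *Hars2* had 3.51, 3.43 and 3.98 RPKM against 3.00, 3.17 and 1.89 RPKM, with no overlap and a log2 change of -0.40 ± 0.19 (SE, adjusted p = 0.24). *Tars2* had 2.4, 2.89 and 2.65 RPKM against 2.16, 2.63 and 1.51 RPKM, with overlap and a log2 change of -0.29 ± 0.18 (SE, adjusted p = 0.353).

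*Lars2*, which charges mitochondrial leucine tRNAs, had the most positive change among the mitochondrial members. It had 0.486, 0.639 and 0.633 RPKM in the *Hoxa9*/MTV mice and 0.923, 0.805 and 0.961 RPKM in the *Hoxa9*/*IRX3* mice. The cohorts were separate, with mouse 3.5 the highest of all 6, but a log2 change of 0.36 ± 0.12 (SE, adjusted p = 0.134) did not pass, and over 10 other settings that kept all mice the adjusted p lay between 0.0811 and 0.176. The next were *Vars2* with 2.35, 2.77 and 2.38 RPKM against 3.13, 2.87 and 2.09 RPKM, *Yars2* with 2.44, 2.51 and 2.79 RPKM against 3.4, 2.69 and 2.22 RPKM, and *Mars2* with 4.73, 3.55 and 4.23 RPKM against 6.47, 3.99 and 3.01 RPKM. In each, mouse 3.2 was the highest and mouse 3.5 the lowest of all 6, so the cohorts overlapped. *Ears2*, with the lowest level among tested mitochondrial members, had 0.47, 0.497 and 0.568 RPKM against 0.642, 0.502 and 0.354 RPKM. *Iars2* and *Sars2*, for isoleucine and serine, had log2 fold changes of -0.14 and -0.19, and *Iars2* overlaps *Rab3gap2* on the other strand over 2034 bases. *Wars2* and *Rars2*, for tryptophan and arginine, were below the level filter and had 0.405, 0.333 and 0.302 RPKM against 0.411, 0.394 and 0.259 RPKM, and 0.248, 0.309 and 0.197 RPKM against 0.17, 0.201 and 0.128 RPKM. Their log2 fold changes from reads were 0.03 (SE 0.23, adjusted p = 0.952) and -0.56 (SE 0.31, adjusted p = 0.32). The 6 untested members had 46 to 379 reads per mouse.

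Averaged over genes, the cytosolic group varied little across the mice and the mitochondrial group was lowest in mouse 3.5. The mean log2(RPKM + 0.5) of the 20 cytosolic genes was 1.48, 1.52 and 1.54 in the *Hoxa9*/MTV mice and 1.61, 1.57 and 1.47 in the *Hoxa9*/*IRX3* mice. For the 17 mitochondrial genes it was 0.73, 0.80 and 0.79, and 0.80, 0.76 and 0.40. The mitochondrial mean minus the cytosolic mean was therefore -0.74, -0.72 and -0.75, and -0.81, -0.81 and -1.07. The cohorts do not overlap in this difference, but the nearest values of the cohorts, -0.75 and -0.81, lay close together. The cytosolic mean includes *Nars*, and without this gene the nearest values lie closer still. Because members share each library and were chosen as a group, no test was made of this difference. Over all tested genes the mean was 1.68, 1.63 and 1.71 in the *Hoxa9*/MTV mice and 1.63, 1.63 and 1.54 in the *Hoxa9*/*IRX3* mice. Mitochondrial members took 0.0397% of reads in mouse 3.5 and 0.0502% to 0.0571% in the others, and cytosolic members 0.136% to 0.146% in the *Hoxa9*/MTV mice and 0.149% to 0.157% in the *Hoxa9*/*IRX3* mice. The cytosolic shares include *Nars*, and the gap between the cohorts rests on this gene. Without its approximate reads the shares of the cohorts overlap, and mouse 3.5 has the lowest. It held about 1157, 1135 and 1335 of 12033, 12038 and 14074 cytosolic reads in the *Hoxa9*/MTV mice. In the *Hoxa9*/*IRX3* mice it held about 2075, 2588 and 2624 of 13884, 15061 and 11892.

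**Figure D4:**
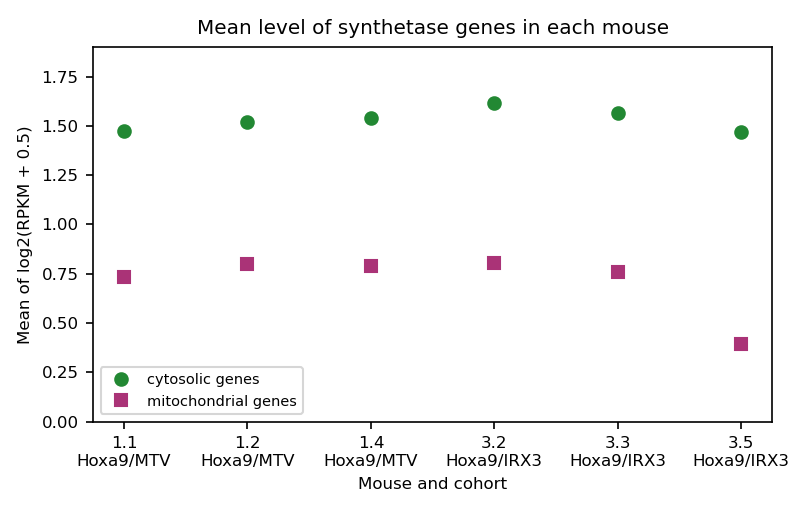
Mean log2(RPKM + 0.5) of the 20 cytosolic genes (green circles) and the 17 mitochondrial genes (purple squares) in each mouse. Cytosolic means lie between 1.47 and 1.61, and the mitochondrial mean of mouse 3.5 is 0.40 against 0.73 to 0.80 in the other mice.

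Genes for the same amino acid were set side by side. With both genes tested there were 12 pairs, and in 8 the cytosolic log2 fold change was above the mitochondrial one, with a median difference of 0.26 and a range of -0.50 to 0.87. The widest were *Eprs* over *Pars2* for proline (0.87), *Aars* over *Aars2* for alanine (0.64) and *Hars* over *Hars2* for histidine (0.55). The reverse was widest for leucine, where *Lars2* stood above *Lars* (-0.50), and valine, where *Vars2* stood above *Vars* (-0.46). Methionine and tyrosine pairs differed by -0.07 and -0.03. Fitted on reads, all 17 pairs could be compared, with 12 in the cytosolic direction and a median difference of 0.35, the widest being asparagine at 1.08. Without mouse 3.5 the median difference over tested pairs was 0.11. *Eprs* enters 2 pairs, for glutamate and proline.

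**Figure D5:**
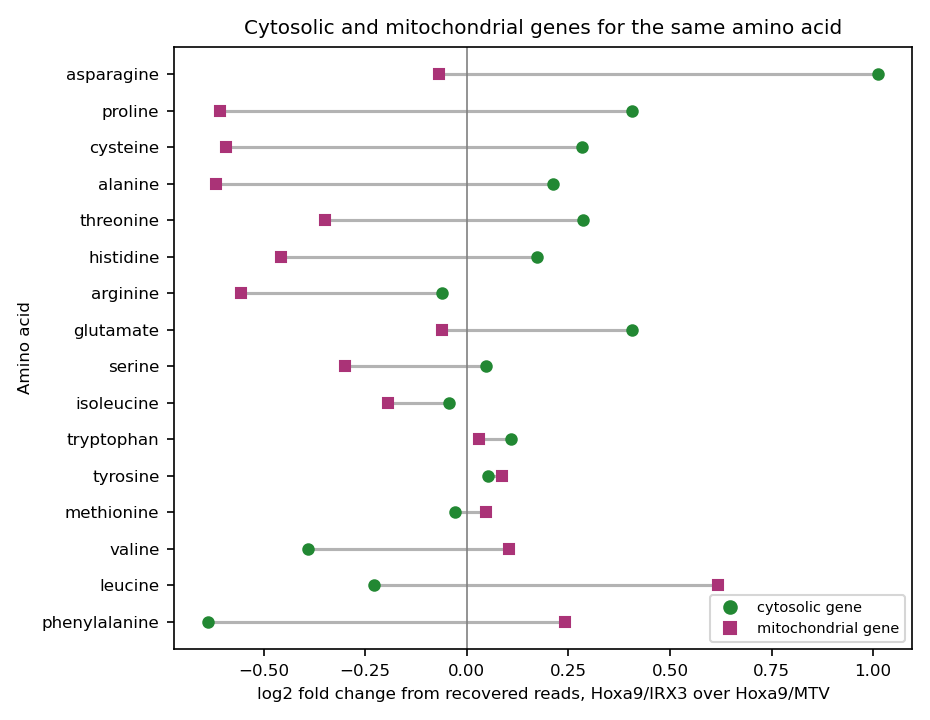
Log2 fold change, fitted on recovered reads, of the cytosolic gene (green circles, for phenylalanine the mean of *Farsa* and *Farsb*) and the mitochondrial gene (purple squares) for 16 of the 17 pairs. The pairs run from asparagine, 1.01 against -0.07, to phenylalanine, -0.64 against 0.24.

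By structural class, which divides the synthetases by the fold of their catalytic domain, both medians lay near 0. The 15 tested class I members had a median log2 fold change of -0.03 and the 16 class II members 0.02. *Eprs* holds a domain of each class and was left out of both.

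The other genes of tRNA charging and of the ATF4 pathway were taken from 10 lists of 84 genes outside the synthetases, of which 67 were tested. Of these, 2 rose and 0 fell (beside 1.84% and 3.52% of all genes tested). At an unadjusted p under 0.05 there were 10 of the 67, beside 24.3% of all genes. From reads 2 were called, beside 4.08% of all genes fitted on reads. They had a median log2 fold change of -0.08. The 2 were *Asns* and *Aldh18a1*, both of the list of ATF4 targets.

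By limma, each of the other 9 lists had 0 calls, also from reads, and 0 or 1 genes at an unadjusted p under 0.05. The first holds 3 scaffold genes of the multisynthetase complex. *Aimp1* had 1.22, 1.43 and 1.49 RPKM against 1.05, 1.09 and 0.927 RPKM without overlap, and *Aimp2* 4.35, 3.03 and 3.98 RPKM against 4.83, 4.51 and 3.74 RPKM, with log2 fold changes of -0.30 and 0.19. Editing and deacylation genes, of which 3 were tested, clear mischarged tRNA. *Aarsd1* had 2.23, 2.88 and 2.61 RPKM against 2.62, 2.12 and 1.59 RPKM and *Prorsd1* 6.9, 6.69 and 7.82 RPKM against 8.27, 6.04 and 5.43 RPKM, overlapping in both. The mitochondrial glutamine route and formylation had 3 tested genes. *Mtfmt*, which formylates the initiator methionyl-tRNA of mitochondria, had 1.72, 1.92 and 1.95 RPKM in the *Hoxa9*/MTV mice and 1.2, 1.32 and 0.95 RPKM in the *Hoxa9*/*IRX3* mice. The cohorts did not overlap, with a log2 change of -0.52 ± 0.12 (SE, adjusted p = 0.0647). *Qrsl1*, a subunit of the amidotransferase that makes mitochondrial glutaminyl-tRNA, had 0.792, 0.463 and 0.709 RPKM against 0.471, 0.514 and 0.3 RPKM.

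Selenocysteine is made on its tRNA after that tRNA is charged with serine by *Sars*, and 6 genes of this route, *Sars* included, were tested. *Secisbp2*, whose protein binds selenoprotein mRNA, had 1.65, 1.41 and 1.48 RPKM against 1.16, 1.19 and 0.639 RPKM, and *Sephs1*, related to selenophosphate synthetase, had 3.35, 3.34 and 3.3 RPKM against 3.6, 4.4 and 6.00 RPKM. Their cohorts did not overlap, in opposite directions, with adjusted p of 0.181 and 0.225. Among 5 elongation factor genes, which bring charged tRNA to the ribosome or move it along, *Eef1d* had 2.31, 2.32 and 2.33 RPKM against 2.75, 2.9 and 2.71 RPKM, and *Eef2* had 557, 662 and 537 RPKM against 576, 463 and 631 RPKM. None of 7 tested mitochondrial translation factors passed (limma, 0 also at an unadjusted p under 0.05 and 0 from reads). Of these *Gfm1*, an elongation factor, had 0.925, 0.993 and 1.00 RPKM against 0.707, 0.857 and 0.721 RPKM, lower without overlap, and *Mtif2*, an initiation factor, had 2.32, 2.21 and 2.09 RPKM against 1.87, 2.25 and 1.31 RPKM.

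Upstream of ATF4, 5 eIF2 kinases and sensors and 8 eIF2 and eIF2B genes were tested, with the phosphatase regulators *Ppp1r15a* and *Ppp1r15b* among the latter. *Eif2ak2*, the kinase PKR that senses double-stranded RNA, had 1.57, 1.54 and 1.63 RPKM against 2.42, 3.21 and 1.96 RPKM, with no overlap and a log2 change of 0.52 ± 0.16 (SE, adjusted p = 0.116). *Impact*, an inhibitor of GCN2 activation, had 1.27, 1.56 and 1.41 RPKM against 1.77, 0.651 and 0.975 RPKM. *Eif2s2*, the beta subunit of eIF2, had 1.79, 1.81 and 2.28 RPKM against 2.18, 1.34 and 0.902 RPKM. *Ppp1r15a*, itself induced by stress, had 8.06, 39.1 and 27.8 RPKM in the *Hoxa9*/MTV mice and 6.7, 9.98 and 2.39 RPKM in the *Hoxa9*/*IRX3* mice. It varied over 4-fold within each cohort, and a log2 change of -1.82 ± 0.68 (SE, adjusted p = 0.17) did not pass.

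*Atf4* mRNA overlapped between the cohorts, at 119, 115 and 181 RPKM in the *Hoxa9*/MTV mice and 163, 121 and 95.5 RPKM in the *Hoxa9*/*IRX3* mice, with a log2 change of -0.13 ± 0.27 (SE, adjusted p = 0.79). Since ATF4 is set largely by translation, its mRNA does not measure its activity. Of the 7 genes of ATF4 and its cofactors none passed. *Atf5*, a related factor, had 2.21, 1.97 and 1.86 RPKM in the *Hoxa9*/MTV mice and 12.998, 6.44 and 2.88 RPKM in the *Hoxa9*/*IRX3* mice. All *Hoxa9*/*IRX3* mice lay higher but spread widely, with a log2 change of 1.44 ± 0.46 (SE, adjusted p = 0.123). *Atf3* was low except in mouse 1.4, at 0.191, 0.0738 and 1.13 RPKM against 0.104, 0.0469 and 0.0384 RPKM.

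Among 30 other ATF4 target genes, 21 were tested and their median log2 fold change was 0.02. *Asns* is described above. *Aldh18a1* encodes the enzyme for the first steps from glutamate to proline, and had 0.894, 0.775 and 0.909 RPKM in the *Hoxa9*/MTV mice and 1.87, 1.66 and 1.9 RPKM in the *Hoxa9*/*IRX3* mice. It rose without overlap, with a log2 change of 0.77 ± 0.11 (SE, adjusted p = 0.0153), and its adjusted p was 0.0778 to 0.0915 without any 1 of the *Hoxa9*/MTV mice. *Pycr1*, for the last step to proline, lay in the opposite direction at 2.44, 3.21 and 1.55 RPKM against 1.18, 0.911 and 0.187 RPKM, with a log2 change of -1.26 ± 0.37 (SE, adjusted p = 0.106). *Ddit4*, an inhibitor of mTORC1, had 6.8, 23.4 and 25.9 RPKM in the *Hoxa9*/MTV mice and 9.21, 4.57 and 3.05 RPKM in the *Hoxa9*/*IRX3* mice, overlapping, with a log2 change of -1.57 ± 0.58 (SE, adjusted p = 0.164). The serine synthesis genes *Phgdh*, *Psat1* and *Psph* had log2 fold changes of 0.02, -0.30 and 0.02, and the amino acid carrier genes *Slc7a5*, *Slc3a2* and *Slc38a2* of -0.06, -0.10 and -0.08, and none of these 6 passed.

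Promoters of the members were searched for TGATGNAA on both strands, the core of the composite element that ATF4 binds with C/EBP factors. RefSeq windows (GRCm38.p6, from 250 bases before to 50 after the gene start) were matched for 28 of the 38 members. Those not matched included *Cars*, *Hars*, *Hars2*, *Lars*, *Nars*, *Pars2*, *Rars*, *Vars* and *Wars*. The motif was in 5 of the 13 cytosolic and 0 of the 14 mitochondrial members matched, not in *Tarsl2*, in 9 of 24 ATF4 target genes matched, and in 4.51% of all 27025 genes with such a window. A match describes letters in this window and is not a measured site. The 30 bases around it are shown for the 5 members and for *Asns*, in the direction of transcription with the motif, or its reverse complement, in capitals, because these genes carry it and, among them, only *Asns* passed the test. Where a promoter held more than 1 match, the match nearest to the gene start is shown.
Aars: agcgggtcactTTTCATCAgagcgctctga
Gars: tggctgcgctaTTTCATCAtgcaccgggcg
Iars: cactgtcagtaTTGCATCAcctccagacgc
Tars: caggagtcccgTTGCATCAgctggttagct
Yars: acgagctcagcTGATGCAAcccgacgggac
Asns: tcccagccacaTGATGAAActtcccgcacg
In order these lie at chr8:111033840-111033869 (plus strand), chr6:55037960-55037989 (plus), chr13:49682126-49682155 (plus), chr15:11399655-11399684 (minus), chr4:129189895-129189924 (plus) and chr6:7693214-7693243 (minus). The 5 members with the motif had log2 fold changes of 0.19 (*Aars*), 0.30 (*Gars*), -0.03 (*Iars*), 0.25 (*Tars*) and 0.04 (*Yars*), and none passed. *Asns*, with the same core, had 2.00. Of the 9 ATF4 targets with the motif, only *Asns* passed. Among those that did not, *Pycr1* had -1.26 and *Chac1* 1.09. *Aldh18a1*, the other ATF4 target called, was not among the genes with a match. Whether the motif bears on any change was not tested.

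Some genes listed as markers of blood cell types differed between the cohorts in the same libraries. Of all 9522 genes tested, 1.84% rose and 3.52% fell (limma). Bulk RNA does not tell whether the leukemia cells themselves or other cells carried these transcripts. The summed level of 9 neutrophil markers was 2730 to 4142 RPKM in the *Hoxa9*/MTV mice and 5557 to 6817 RPKM in the *Hoxa9*/*IRX3* mice, and 2 of 9 rose (*Ly6g* and *Elane*). That of 8 monocyte and macrophage markers was 110 to 132 and 18.4 to 41.4 RPKM, and 2 of 6 tested fell (*Ccr2* and *Cd68*). Mast cell and basophil markers summed to 14.5 to 20.3 and 4.51 to 7.31 RPKM, where 2 of 4 tested fell (*Cpa3* and *Gata2*) and *Fcer1a* was listed at 0. Of these 4, 3 were lower in every *Hoxa9*/*IRX3* mouse than in any *Hoxa9*/MTV mouse, and 1 was higher in every one. The sum of 7 B cell markers was 6.35 to 7.36 and 0.853 to 5.07 RPKM, nearly all of the former *Cd79b*, which fell. Only 2 B cell markers were tested, and the other was higher in every *Hoxa9*/*IRX3* mouse than in any *Hoxa9*/MTV mouse, without a call. From the recovered reads (voom), 1 neutrophil, 2 monocyte and macrophage, 0 mast cell and basophil and 1 B cell marker passed, so the mast cell calls rest on the RPKM fit alone. Markers of T and NK cells were at or near 0 apart from *Nkg7*, at 482 RPKM in mouse 3.5 and 14.9 to 100 RPKM elsewhere. Of 15 cell cycle genes limma called 0 (3 at an unadjusted p under 0.05, and 0 from reads), with a median log2 fold change of 0.09. The part of these differences in the levels of *Nars*, *Asns* and *Farsa* was not tested.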

How the data were processed

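RNA of sorted cells was measured in 6 mice, 3 per cohort, grouped by their labels. The authors made strand-specific polyA libraries, aligned 75-base paired reads to GRCm38 with Bowtie2 2.2.1, dropped unaligned, non-primary and low-quality (Phred under 20) alignments with SAMtools 0.1.19, counted reads on Ensembl v76 genes and deposited RPKM, in which reads are divided by the whole gene span. No deposited column was left unused. The totals that scale the RPKM of each library (7979246 to 9803621 reads) were recovered from the steps between low RPKM. They gave whole reads, to within 0.01 of a read, for 73% of detected genes. The sums over genes came to 104% to 105% of these totals. Positions and exon lengths came from GENCODE M21. Recovered reads are approximate for the genes without whole reads, *Nars* among them.

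Protein-coding genes over 0.5 RPKM in at least 1 mouse (9522) were fitted on log2(RPKM + 0.5) with limma 3.58.1 (eBayes with a variance trend, R 4.3.3) and Benjamini-Hochberg adjustment over all of them. Fold changes on that scale understate those of low genes. A call is an adjusted p under 0.05. Fold changes from reads are limma-voom estimates over genes with a mean of at least 10 reads, added after seeing the data because they keep all 38 members (11391 genes, 465 called, 4.08%). With 3 mice against 3 an exact permutation test cannot go below 0.1, so none is given. The script was tested on simulated data. Genes given by mouse are calls, the 5 largest changes in each direction among tested members of each compartment, the 3 highest and lowest levels, *Tarsl2*, *Kars*, *Gars*, *Qars*, and the calls and 2 largest changes of each pathway list. Others named are added for their role. Some genes and a sequence that this rule covers are not reported here, but the genes are included in every count and median. The members and lists were chosen with earlier results of these data known. Overlaps of genes were taken from the annotation. Similar stretches in other transcripts were searched with blastn 2.17.0 (at least 95% identity over at least 75 bases). Alternatives were other pseudocounts, filters, scalings and variance models, levels per kilobase of exons, the unpaired test of the study with a ratio over 2, and leaving out each mouse. Python 3.11.15, pandas 2.3.3 and matplotlib 3.10.9 were used.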

Additional observations from a re-analysis of the deposited data

How the results depend on the processing

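The rise of *Nars* held its direction under every alternative tried, with log2 fold changes of 0.84 to 1.08 when a mouse was left out and 0.93 to 1.06 otherwise, and adjusted p of 0.0155 to 0.0341 with all mice kept. It was the 1 higher member with all mice kept and under the unpaired test, and 0 to 1 members were higher without 1 mouse. The count of lower members was 0, but 1 with sample weights (*Farsa*), and 0 to 1 without 1 mouse. Among the pathway genes 2 were higher, and 1 to 3 without 1 mouse, while 0 were lower, also without 1 mouse, except for 1 (*Pycr1*) under the unpaired test. The cytosolic median log2 fold change (0.04) was 0.11 under median-of-ratios scaling and 0.13 under quantile normalization, and -0.0015 to 0.08 without 1 mouse. The mitochondrial median (-0.14) was -0.25 to 0.0442 without 1 mouse, the latter without mouse 3.5. Their difference (0.17) was 0.31 for genes with a mean RPKM of at least 1, 0.0645 without a filter on low values, and 0.0366 (without mouse 3.5) to 0.25 without 1 mouse. The median difference of the pairs (0.26) was 0.39 with the mean RPKM filter and 0.11 to 0.33 without 1 mouse. The causes were not tested. No paired analysis was possible because the mouse numbers of the cohorts have none in common. The 6 members left out by the level filter rest on 46 to 379 reads per mouse, which limits the precision of their values.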

Other observations

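Further genes around asparagine and aspartate were looked at after the values of *Asns* and *Nars* were seen, so they support nothing by themselves. None passed an adjusted p under 0.05 (limma). *Got1*, the cytosolic enzyme that exchanges aspartate and oxaloacetate, had 1.04, 1.07 and 1.04 RPKM in the *Hoxa9*/MTV mice and 1.13, 2.36 and 2.11 RPKM in the *Hoxa9*/*IRX3* mice, with a log2 change of 0.57 ± 0.22 (SE, adjusted p = 0.171). Its mitochondrial counterpart *Got2* had 2.45, 2.97 and 2.24 RPKM against 2.15, 2.32 and 2.15 RPKM in *Hoxa9*/MTV against *Hoxa9*/*IRX3* mice. *Asrgl1*, which encodes an asparaginase, had 2.93, 3.17 and 2.8 RPKM in the *Hoxa9*/MTV mice and 1.99, 2.6 and 2.15 RPKM in the *Hoxa9*/*IRX3* mice, lower without overlap, with a log2 change of -0.34 ± 0.12 (SE, adjusted p = 0.158). *Aspg*, another asparaginase gene, was listed at 0 in all mice. *Glul*, for glutamine synthesis, ranged from 5.82 to 39.5 RPKM and overlapped between cohorts.

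Genes of the mitochondrial ribosome were also chosen after the values of mouse 3.5 were seen. Of 72 tested, 0 rose and 1 fell, with a median log2 fold change of -0.04. Mouse 3.5 was the lowest in 30 of the 72 (41.7%), against 33.3% of all tested genes and 15 of the 17 mitochondrial synthetases (88.2%). Among 74 tested genes of the cytosolic ribosome it was the lowest in 25 (33.8%). Ribosomal protein genes have many near-identical copies, so their values are uncertain.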
